A study of Mus musculus with 36 samples.

Results

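The genes of the sarcomeric thin filament were followed in LncCPR-KO and control mouse embryonic stem cells at 6 time points of differentiation towards heart cells. They were the troponin genes Tnnt2, Tnnt1, Tnni1, Tnni3 and Tnnc1, the alpha-tropomyosin gene Tpm1, and the sarcomeric actin genes Actc1 and Acta1. Members were taken by gene symbol. The 8 symbols matched 9 of the 37561 gene entries in the deposited tables, because Tnnc1 is listed under 2 identifiers.

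The thin filament is a polymer of actin with tropomyosin lying along it and a troponin complex at regular intervals. Troponin C binds calcium, troponin I holds the filament off when calcium is low, and troponin T anchors the complex to tropomyosin. When calcium binds, tropomyosin shifts and myosin heads reach the actin. The heart uses Tnnt2, Tnnc1 and, in the adult, Tnni3, while the embryonic heart relies mainly on Tnni1, the slow skeletal troponin I. Actc1 encodes the actin of mature heart muscle and Acta1 that of skeletal muscle, and the early heart makes both. Tpm1 also gives spliced forms to smooth muscle and non-muscle cells, and Tnnt1 is the troponin T of slow skeletal fibres.

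The LncCPR-KO line and the control line were both AB2.2, an established mouse embryonic stem cell line, with 3 libraries per line at each of days 0, 3, 5, 8, 10 and 12, 36 libraries in all. Day 0 is the undifferentiated state. From then on LIF, the factor that keeps such cells undifferentiated, was withdrawn and cells were grown in hanging drops as embryoid bodies, which were harvested whole and so hold many cell types. The knockout was made with Cas9 and a pair of guides flanking the LncCPR gene, followed by sorting of single cells. How many cell lines stand behind the 18 LncCPR-KO libraries is not given in the labels, nor is it said that libraries of a group were separate cultures. The p-values then measure only the spread between these libraries, which may be technical.

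The values are FPKM (fragments normalized for transcript length and for the library's total) and carry no read count. Each day is a separate table whose scaling to the others is not stated, so levels set across days below are untested descriptions. FPKM summed to 294740 to 403675 per library, and 11248 to 13183 genes per library lay above 1 FPKM. No entry is named LncCPR. The transcript 4930500J02Rik, singled out after its values were seen, stood at 0 in 16 LncCPR-KO libraries and reached 0.280 FPKM at most in the remaining 2, against 5.66 to 49.5 FPKM in the 18 control libraries. A fold change below is LncCPR-KO over control on the log2(FPKM + 1) scale, within 1 day, with its standard error (SE). A gene passed the test when its limma p, adjusted over all genes tested that day, was under 0.05. Genes averaging under 1 FPKM on a day were not tested there.

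Tnnt2, Tnni1, Tnnc1 and Actc1, all used by the embryonic heart, came up in both lines between days 5 and 8, but to a far lower level in LncCPR-KO embryoid bodies. Tnni3 was above its day-5 level in the control libraries of day 8 and averaged 1.63 FPKM in LncCPR-KO at day 8, beside 4.13 FPKM there at day 5. At day 8, Tnnt2, Tnni1, Tnni3, Tnnc1 and Actc1 were lower in the knockout, Acta1 was higher, and Tpm1 and Tnnt1 did not pass the test. These were 6 of the 8 entries tested at that day, where 3.28% of all 12695 genes tested passed, 1.28% higher and 2.00% lower. At day 10 again 6 entries passed of 9 tested, 1 higher and 5 lower, while 20.2% of all genes passed, 15.0% higher and 5.12% lower. At day 12 it was 6 of 8, 1 higher and 5 lower, against 6.71% of all genes, 3.22% higher and 3.48% lower. The 5 lower entries at days 8 and 10 were the same 5, and at day 12 Tnnt1 took the place of Tnnc1 among them. Whether fewer cardiomyocytes or less RNA per cardiomyocyte lies behind such values cannot be told apart in whole embryoid bodies.

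**Figure D1:**
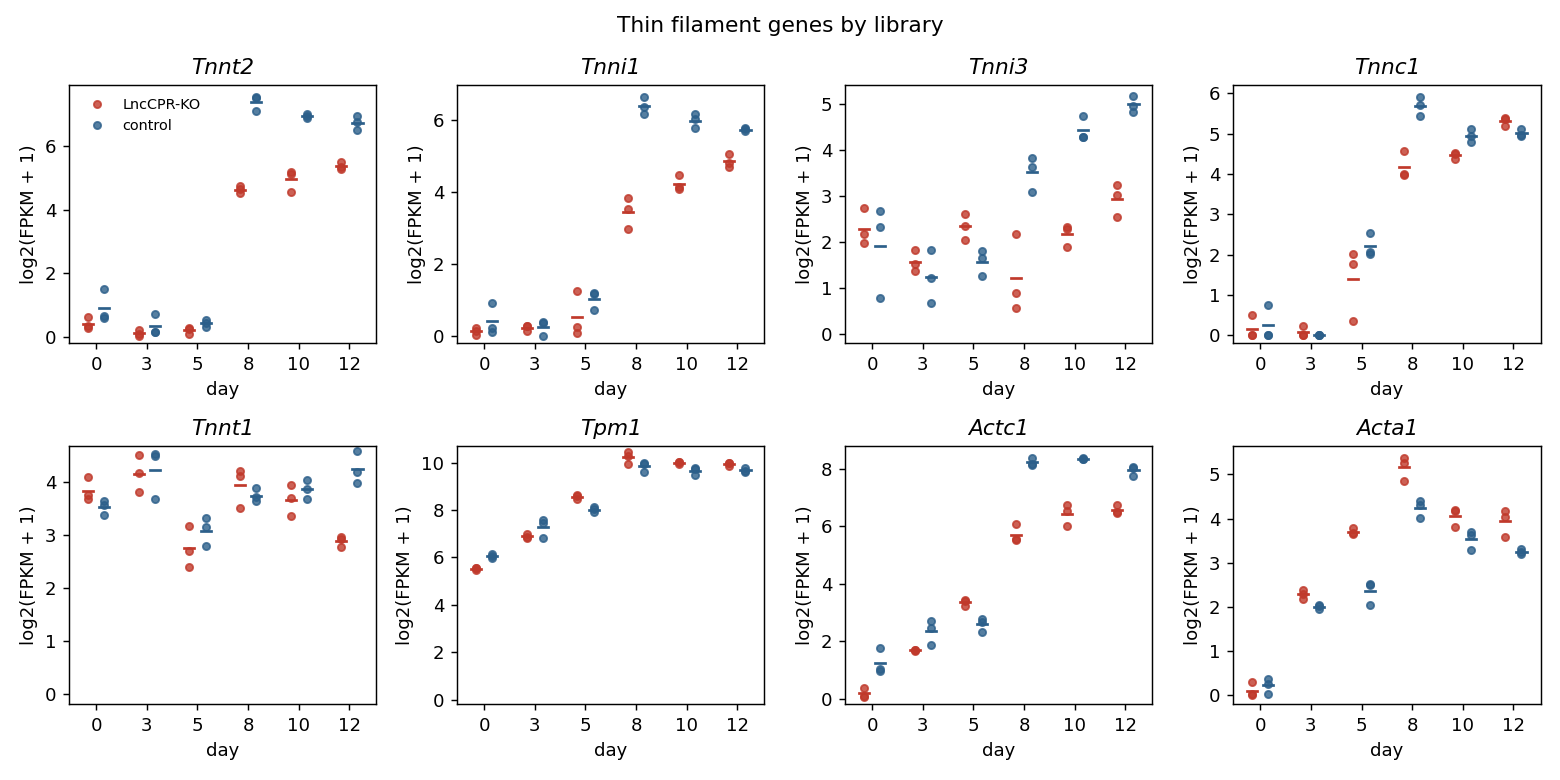
Level of each thin filament gene in every library, as log2(FPKM + 1), by day, with LncCPR-KO libraries in red left of control libraries in blue and a bar at each group's mean. At day 8 the lines do not overlap for Tnnt2, Tnni1, Tnni3, Tnnc1 and Actc1, all lower in LncCPR-KO, nor for Acta1, which is higher in LncCPR-KO. The Tnnc1 panel shows the entry ENSMUSG00000021909, and each panel has its own vertical range.

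Troponin T ties the troponin complex to tropomyosin. Tnnt2, the cardiac form on chromosome 1, was at 24.0, 22.1 and 25.6 FPKM in the LncCPR-KO libraries of day 8, against 137, 186 and 182 FPKM in the control libraries. The highest LncCPR-KO library lay below the lowest control library by a wide margin. The log2 fold change was -2.75 (SE 0.15, adjusted p = 3.88e-05). At day 10 Tnnt2 was at 22.4, 35.5 and 33.9 FPKM in LncCPR-KO and 128, 122 and 117 FPKM in control libraries, and at day 12 at 44.4, 37.9 and 40.0 FPKM in LncCPR-KO and 90.2, 106 and 121.5 FPKM in control libraries. The lines still did not overlap, with log2 fold changes of -1.99 (SE 0.17, adjusted p = 9.94e-06) and -1.35 (SE 0.13, adjusted p = 6.55e-04). Through days 0, 3 and 5 Tnnt2 stayed under 1 FPKM in every library except control replicate 1 of day 0, at 1.86 FPKM, and it was not tested there.

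Tnnt1, the slow skeletal troponin T, behaved differently from Tnnt2. It was present from the first day, at 11.7 to 16.1 FPKM in LncCPR-KO and 9.46 to 11.5 FPKM in control stem cells at day 0, and no difference passed the test before day 12. At day 8 the libraries overlapped, at 16.3, 17.5 and 10.4 FPKM in LncCPR-KO and 13.8, 12.1 and 11.4 FPKM in control. At day 12 Tnnt1 was at 6.80, 6.62 and 5.87 FPKM in LncCPR-KO and 14.9, 17.3 and 22.9 FPKM in control libraries. That is a log2 fold change of -1.36 (SE 0.16, adjusted p = 0.00188), and no LncCPR-KO library reached the lowest control library. At days 0, 3 and 5 Tnnt1 lay above Tnnt2 in every library of both lines, so before the heart stage it was the main troponin T of the pair.

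Troponin I is the inhibitory subunit. Tnni1, its embryonic and slow skeletal form, lies next to Tnnt2 on chromosome 1. At day 8 it was at 6.91, 13.2 and 10.55 FPKM in LncCPR-KO and 81.5, 98.9 and 70.85 FPKM in control libraries, a log2 fold change of -2.94 (SE 0.21, adjusted p = 6.79e-05) and the lowest among the 8 tested entries that day. At day 10 the LncCPR-KO libraries held 15.85, 21.2 and 16.5 FPKM and the control libraries 70.4, 64.1 and 53.5 FPKM (log2 fold change -1.76, SE 0.15, adjusted p = 1.27e-05). At day 12 the values were 25.0, 32.5 and 26.8 FPKM in LncCPR-KO and 52.95, 50.4 and 53.8 FPKM in control (log2 fold change -0.88, SE 0.12, adjusted p = 0.00338). The lines did not overlap on any of these days, and the gap was smaller at day 12 than at day 8.

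Tnni3, the troponin I of the mature heart, was already detected before any heart stage, at 2.93 to 5.63 FPKM in LncCPR-KO and 0.716 to 5.36 FPKM in control stem cells at day 0. At day 8 it was at 0.8575, 3.53 and 0.493 FPKM in LncCPR-KO libraries and at 11.3, 13.1 and 7.46 FPKM in control libraries. LncCPR-KO replicate 2 stood above the other 2 of its group but below every control library (log2 fold change -2.29, SE 0.37, adjusted p = 0.00915, or 0.122 when no gene is filtered out for low values). At day 10 the LncCPR-KO libraries were at 4.02, 2.74 and 3.85 FPKM and the control libraries at 18.4, 18.4 and 25.6 FPKM, a log2 fold change of -2.26 (SE 0.17, adjusted p = 4.47e-06). At day 12 they were at 7.17, 8.41 and 4.83 FPKM in LncCPR-KO and 27.2, 30.1 and 35.2 FPKM in control, a log2 fold change of -2.05 (SE 0.18, adjusted p = 5.85e-04). The Tnni3 gene shares exonic bases with a gene listed as 6030429G01Rik on the same strand, which stayed at 0.202 to 1.41 FPKM in LncCPR-KO libraries of days 5 to 12 and at 0.0864 to 0.820 FPKM in control libraries. How the authors' counting divided reads between them is not given in the sources used here.

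Troponin C is the calcium sensor, and Tnnc1 encodes the form of heart and slow muscle. The entry ENSMUSG00000021909 varied with the day. The other entry, ENSMUSG00000091898, held 0.248 to 1.33 FPKM in all 36 libraries. It averaged 1 FPKM or more only at day 10, so the main fits tested it only there, and it did not pass. This second identifier is the one Tnnc1 has in the GENCODE M21 annotation, from which the gene's position and overlap are taken. How the authors' counting split reads between the entries is not known. The first entry was at 14.9, 22.7 and 15.0 FPKM in LncCPR-KO and 51.2, 59.3 and 42.6 FPKM in control libraries at day 8, without overlap (log2 fold change -1.50, SE 0.19, adjusted p = 0.00186). At day 10 the values were 21.5, 21.8 and 19.9 FPKM in LncCPR-KO and 26.7, 33.7 and 30.0 FPKM in control (log2 fold change -0.49, SE 0.13, adjusted p = 0.0229). At day 12 LncCPR-KO stood above control, with 35.8, 41.1 and 39.9 FPKM in LncCPR-KO and 34.0, 29.9 and 30.2 FPKM in control libraries, a difference of 0.30 on the log2 scale that did not pass the test (SE 0.10, adjusted p = 0.118). Of the troponin genes lower at day 8, Tnnc1 was the one whose LncCPR-KO libraries all lay above the control libraries at day 12. The day-10 call did not hold without control replicate 2 (adjusted p = 0.0559) or without LncCPR-KO replicate 1, 2 or 3 (adjusted p = 0.0568, 0.0612 and 0.0866), nor without the filter on low values (0.0659). Tnnc1 overlaps Nisch on the opposite strand, which held 40.7 to 125 FPKM, and it is not stated whether counting used strand.

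**Figure D2:**
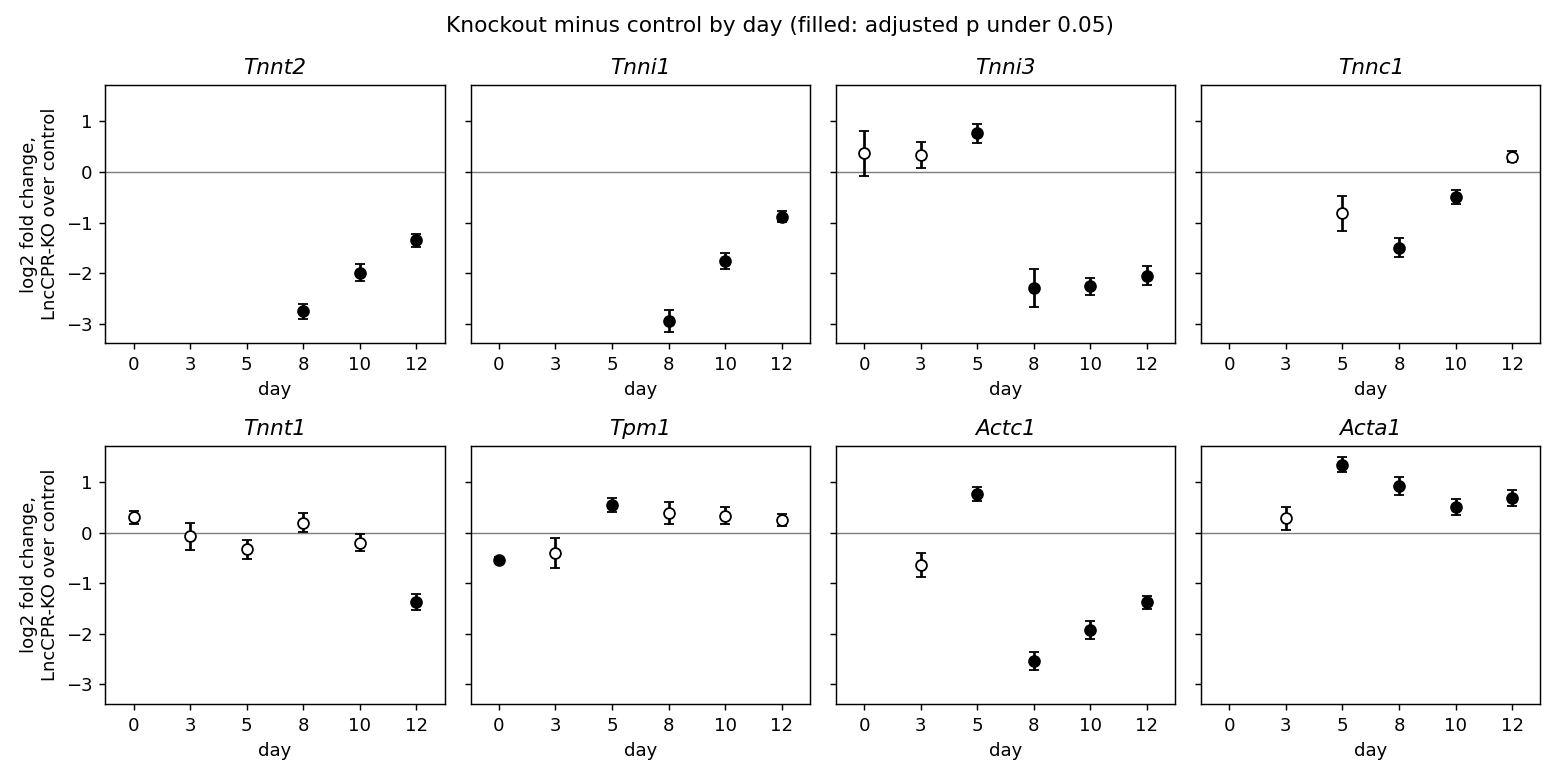
Log2 fold change, LncCPR-KO over control, of each thin filament gene by day, with bars of 1 SE, filled where the adjusted p was under 0.05 and absent where the gene was too low to be tested. Tnnt2, Tnni1 and Actc1 are at -2.75, -2.94 and -2.53 at day 8 and at -1.35, -0.88 and -1.38 at day 12, Tnni3 is between -2.29 and -2.05 over these days, and Acta1 is above 0 at every day tested.

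Tropomyosin lies along the actin filament and carries the troponin complex. Tpm1 was the most abundant of the 8 genes in all 36 libraries. At day 0 it was lower in the knockout, at 45.7, 42.7 and 46.4 FPKM in LncCPR-KO and 61.8, 65.8 and 68.7 FPKM in control libraries (log2 fold change -0.53, SE 0.06, adjusted p = 0.00265). It was the 1 of 3 entries tested that passed at day 0, where 14.5% of all genes passed, 6.49% higher and 8.03% lower. At day 3 none of 5 entries passed, against 1.75% of all genes, 1.09% higher and 0.668% lower. Tpm1 was then at 114, 125 and 113 FPKM in LncCPR-KO and 111, 174 and 192 FPKM in control libraries, a difference of -0.40 on the log2 scale (adjusted p = 0.678). Control replicate 1 stood apart there, and without it Tpm1 and Actc1 were lower in LncCPR-KO (log2 fold changes -0.63 and -0.87, adjusted p = 0.0437 and 0.0337). That library had the lowest FPKM sum of all 36 (294740) and the fewest genes above 1 FPKM (11248). Its 10 highest genes held 30.1% of its sum. That share was not particular to it, at 30.3% in control replicate 3 of day 10 and 30.2% in LncCPR-KO replicate 1 of day 8. The entry mt-Rnr2 was at 38464 FPKM in control replicate 1 of day 3 and at 49728 FPKM in replicate 2. In 32 of the 36 libraries mt-Rnr2 was listed at 0.

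At day 5, 4 of 6 entries passed and all 4 were higher in LncCPR-KO, where 10.4% of all genes passed, 7.07% higher and 3.32% lower. They were Tpm1, Tnni3, Actc1 and Acta1. The median log2 fold change of all genes at day 5 was 0.13, with 880 genes higher and 413 lower, and after rescaling the libraries to a common median 647 were higher and 866 lower. Tpm1 was at 398, 354 and 383.5 FPKM in LncCPR-KO and 239.5, 275 and 259 FPKM in control libraries (log2 fold change 0.55, SE 0.14, adjusted p = 0.0262). The call was lost without control replicate 2 or 3 (adjusted p = 0.0610 and 0.0684) and without LncCPR-KO replicate 1 or 3 (0.109 and 0.106), without the filter on low values (0.104) and relative to the chromosome's median (0.42, adjusted p = 0.0948). From day 8 on Tpm1 did not pass the test. Its level at day 8 was 1247, 1413 and 990.3 FPKM in LncCPR-KO and 1023, 970.3 and 776 FPKM in control libraries, and the log2 fold changes of days 8, 10 and 12 were 0.39, 0.34 and 0.26 (adjusted p = 0.393, 0.167 and 0.238). All 3 lay above 0, where the cardiac troponins and Actc1 lay below it at days 8 and 10.

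Tnni3 at day 5 was at 5.14, 3.13 and 4.11 FPKM in LncCPR-KO and 2.16, 2.50 and 1.40 FPKM in control libraries (log2 fold change 0.76, SE 0.18, adjusted p = 0.0233). That call was lost after rescaling (0.66, adjusted p = 0.0693), without control replicate 1 or 3 (0.0832 and 0.0822) and without LncCPR-KO replicate 1 (0.0648), without the filter (0.154) and relative to the chromosome's median (0.0636). Tnni3 and Actc1 were the members that passed in opposite directions at days 5 and 8, higher in LncCPR-KO at day 5 and lower at day 8.

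The sarcomeric actins form the filament itself. At day 5 Actc1 was at 8.46, 9.61 and 9.72 FPKM in LncCPR-KO and 5.37, 5.81 and 4.01 FPKM in control libraries (log2 fold change 0.77, SE 0.14, adjusted p = 0.00563, or 0.0609 without the filter on low values). At day 8 it was at 46.0, 66.3 and 44.9 FPKM in LncCPR-KO, against 289, 337 and 285 FPKM in control libraries (log2 fold change -2.53, SE 0.17, adjusted p = 4.52e-05). The lines were far apart, and the highest LncCPR-KO library was below the lowest control library. At day 10 the LncCPR-KO libraries held 63.3, 107 and 92.95 FPKM and the control libraries 329, 330.2 and 330.5 FPKM (log2 fold change -1.93, SE 0.18, adjusted p = 1.84e-05). At day 12 they held 107, 89.1 and 88.6 FPKM in LncCPR-KO and 267, 218 and 260.3 FPKM in control (log2 fold change -1.38, SE 0.12, adjusted p = 5.85e-04).

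Acta1, on chromosome 8, was higher in LncCPR-KO at day 5, as Actc1 was, and stayed higher at day 8, where Actc1 was lower. At day 5 it was at 11.7, 12.7 and 11.5 FPKM in LncCPR-KO and 4.71, 4.67 and 3.11 FPKM in control libraries (log2 fold change 1.35, SE 0.14, adjusted p = 1.85e-04). At day 8 it was at 37.5, 40.7 and 27.8 FPKM in LncCPR-KO and 18.9, 20.1 and 15.1 FPKM in control (log2 fold change 0.92, SE 0.17, adjusted p = 0.0188). In both lines the day-8 libraries held the highest Acta1 values of the 6 days. At days 10 and 12 the log2 fold changes were 0.51 (SE 0.16, adjusted p = 0.0389) and 0.68 (SE 0.16, adjusted p = 0.0366), and again no LncCPR-KO library fell to the level of a control library.

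The day-5 call of Acta1 held without any single library, and the later ones did not. At day 8 it was lost without control replicate 1 or 3 and without LncCPR-KO replicate 1 or 2 (adjusted p = 0.0588 to 0.0800). At day 10 it was lost without control replicate 1 or 3 and without LncCPR-KO replicate 2 or 3 (0.0542 to 0.124). At day 12 it was lost without any control replicate and without LncCPR-KO replicate 1 or 3 (0.0760 to 0.115). Without the filter on low values the adjusted p was 0.112, 0.156 and 0.133 at days 8, 10 and 12. The median log2 fold change of all genes was 0.17 at day 10, with 1946 higher and 663 lower, and rescaling gave 1231 higher and 1477 lower. After that rescaling Acta1 was at 0.34 (adjusted p = 0.0934) at day 10 and 0.63 (adjusted p = 0.0616) at day 12. Counts of all genes at day 12 were 422 higher and 456 lower, or 345 and 644 after rescaling, and at day 3, where the median was 0.15, they were 130 and 80, or 212 and 329.

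The start regions of both actin genes are printed because the pair share a sequence element and moved in opposite directions at day 8. They are RefSeq promoters of the build GRCm38.p6, from 250 bases before to 50 bases after the annotated start, 5′ to 3′ on the minus strand. Actc1 is at chr2:114052826-114053125 (−) and Acta1 at chr8:123894726-123895025 (−), and capitals mark the CArG box, the sequence bound by serum response factor in muscle genes.
Actc1: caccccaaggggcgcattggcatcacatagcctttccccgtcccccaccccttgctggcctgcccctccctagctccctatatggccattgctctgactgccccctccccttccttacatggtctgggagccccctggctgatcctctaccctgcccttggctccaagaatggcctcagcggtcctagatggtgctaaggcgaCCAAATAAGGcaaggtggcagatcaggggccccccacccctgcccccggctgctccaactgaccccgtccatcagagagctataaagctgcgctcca
Acta1: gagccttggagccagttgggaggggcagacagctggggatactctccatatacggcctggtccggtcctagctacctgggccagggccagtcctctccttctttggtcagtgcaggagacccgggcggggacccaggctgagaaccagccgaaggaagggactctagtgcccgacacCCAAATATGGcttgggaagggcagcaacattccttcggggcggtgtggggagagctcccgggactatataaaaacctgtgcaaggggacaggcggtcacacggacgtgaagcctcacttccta
The box begins at base -47 in Actc1 and at base -73 in Acta1, counted from the annotated start. All 8 symbols matched a promoter window, 10 windows in all. The windows of Actc1 and Acta1 held a CArG box, as did 535 of all 32851 windows of the same length (1.63%), both strands searched, and those of the other 6 genes held none. The letters TATAAA, on either strand, stood in the windows of Actc1, Acta1 and Tnnt1 and in 13.6% of all windows, and CATTCC, on either strand, in those of Acta1, Tnnt2, Tnnc1 and Tpm1 and in 14.7% of all. AGATAA, on either strand, stood in 1 window of Tnnt2 among the members and in 11.2% of all, and CANNTG, the same on both strands, in every member window and in 72.3% of all. These are matches of letters only. In the GENCODE M21 transcripts Actc1 and Acta1 share no stretch of 50 bases, and 31 of the 1534 such stretches of Acta1 (2.02%) recur in other genes, among them Actb. On the opposite strand Actc1 overlaps A530058N18Rik, at no more than 0.272 FPKM, and Acta1 overlaps Gm20388. Gm20388 ran from 0.0334 to 9.63 FPKM and differed widely within groups. In LncCPR-KO it was at 3.67, 8.49 and 0.979 FPKM at day 5 and at 7.91, 0.0352 and 1.40 FPKM at day 8. In control it was at 1.70, 2.62 and 0.536 FPKM at day 5 and at 0.0462, 0.0612 and 0.0401 FPKM at day 8. How reads were divided between Gm20388 and Acta1 is not given in the sources used here.

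Shares of paired forms inside a library do not depend on how the library was scaled. The log2 ratios tested add 1 FPKM to each form. Of the 3 pairs the actins differed most. Acta1 made up 40.4 ± 3.90% of the summed Acta1 and Actc1 FPKM in LncCPR-KO libraries and 5.60 ± 0.56% in control libraries at day 8 (SD, n = 3 each). At day 10 the share was 15.5 ± 1.62% in LncCPR-KO and 3.15 ± 0.50% in control, and at day 12 it was 13.3 ± 2.67% in LncCPR-KO and 3.35 ± 0.36% in control. At day 5, before the heart genes came up, the shares were 56.4 ± 1.95% in LncCPR-KO and 45.0 ± 1.56% in control. The share was therefore lower at day 12 than at day 5 in both lines. The log2 ratio of Acta1 to Actc1 was 2.65 higher in LncCPR-KO over days 8, 10 and 12, higher in all 9 LncCPR-KO libraries than in any control library of its day. The two-sided exact permutation test within days gave p = 0.00025, the smallest it can give, and 0.00075 adjusted over the 3 ratios.

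The troponin T pair stood apart between the lines at days 8 and 10 and overlapped at day 12. Tnnt1 made up 37.9 ± 7.99% of the summed Tnnt1 and Tnnt2 FPKM in LncCPR-KO and 7.06 ± 1.82% in control libraries at day 8. At day 10 it was 28.6 ± 9.23% in LncCPR-KO and 10.1 ± 1.60% in control, and at day 12 13.7 ± 1.09% in LncCPR-KO and 14.7 ± 1.05% in control. The LncCPR-KO minus control difference in log2 ratio was 2.95, 1.79 and -0.01 at these days, a mean of 1.58 (two-sided exact permutation p = 0.00325, 0.00488 adjusted over 3). With 3 libraries against 3 a single day cannot go below 0.1, which days 8 and 10 reached.

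The troponin I pair, whose balance moves towards Tnni3 as the heart matures, gave no difference past the threshold over the 3 days. Tnni3 made up 12.2 ± 8.38% of the summed Tnni1 and Tnni3 FPKM in LncCPR-KO and 11.2 ± 1.43% in control libraries at day 8. At day 10 it was 16.9 ± 4.75% in LncCPR-KO and 25.1 ± 6.33% in control. At day 12 it was 19.4 ± 3.65% in LncCPR-KO and 36.9 ± 2.82% in control, and no library of one line reached the other. The log2 ratio of Tnni1 to Tnni3 was 0.34 higher in LncCPR-KO on average over the 3 days (two-sided exact permutation p = 0.227, also after adjustment). By day it was -0.65, 0.50 and 1.16, with exact p = 0.3, 0.5 and 0.1, so at day 12 it reached the smallest p that 3 against 3 allow. The sign of the mean depended on the number added to each FPKM value before the log, 1 in the main test. It was 0.66 (exact p = 0.0425) with 0.1 FPKM added and -0.16 (exact p = 0.539) with 5 FPKM added.

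**Figure D3:**
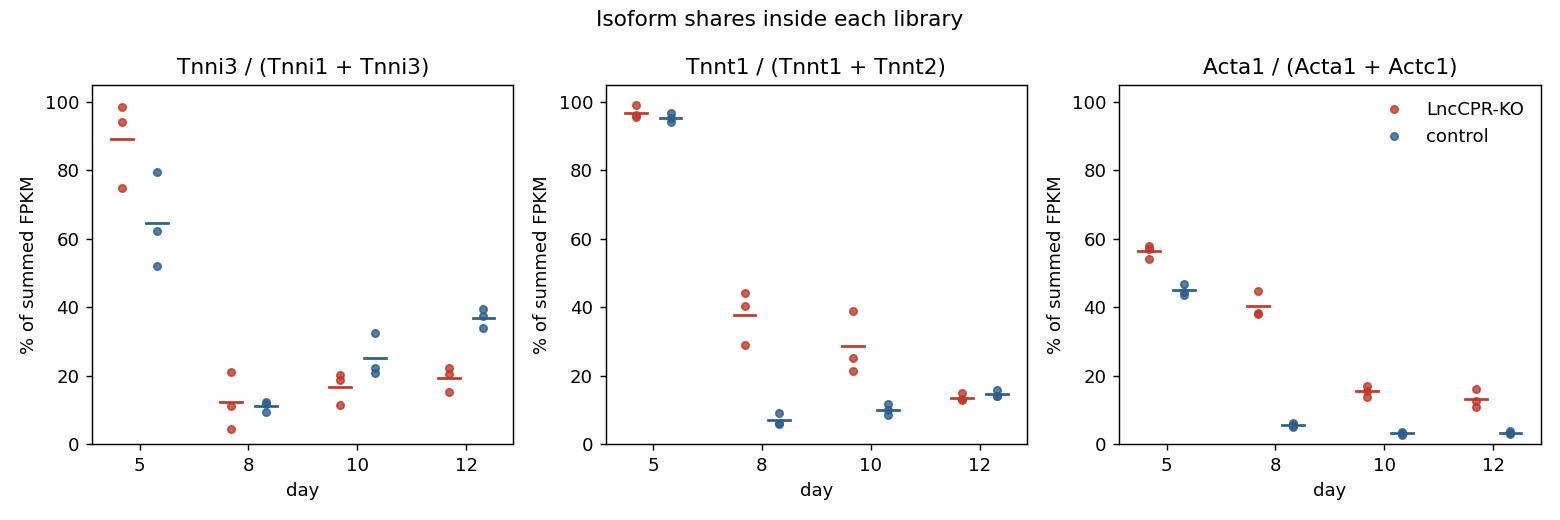
Share of Tnni3, Tnnt1 and Acta1 in the summed FPKM of its pair, in percent, for each library by day, LncCPR-KO in red left of control in blue, with bars at group means. The Acta1 share is higher in LncCPR-KO at days 5 to 12, the Tnnt1 share at days 8 and 10, and the Tnni3 share is lower in LncCPR-KO at day 12.

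Set against Tnnt2 in the same library, the cardiac members kept different proportions. Actc1 per Tnnt2 ran from 1.76 to 3.01 in LncCPR-KO and from 1.57 to 2.96 in control libraries over days 8, 10 and 12, so these ranges overlapped. Tnni1 per Tnnt2 ran from 0.289 to 0.858 in LncCPR-KO and from 0.389 to 0.596 in control libraries, which also overlapped. Tnnc1 per Tnnt2 was 0.621, 1.02 and 0.588 in LncCPR-KO and 0.374, 0.319 and 0.234 in control libraries at day 8. At day 12 it was 0.805, 1.08 and 0.997 in LncCPR-KO and 0.377, 0.281 and 0.248 in control. No LncCPR-KO library overlapped with a control library in that ratio. Tnni3 per Tnnt2 overlapped at days 8 and 10, at 0.0193 to 0.179 in LncCPR-KO and 0.0410 to 0.218 in control libraries over both days. At day 12 it was 0.161, 0.222 and 0.121 in LncCPR-KO and 0.302, 0.283 and 0.289 in control libraries. These ratios are given as values with no test.

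**Figure D4:**
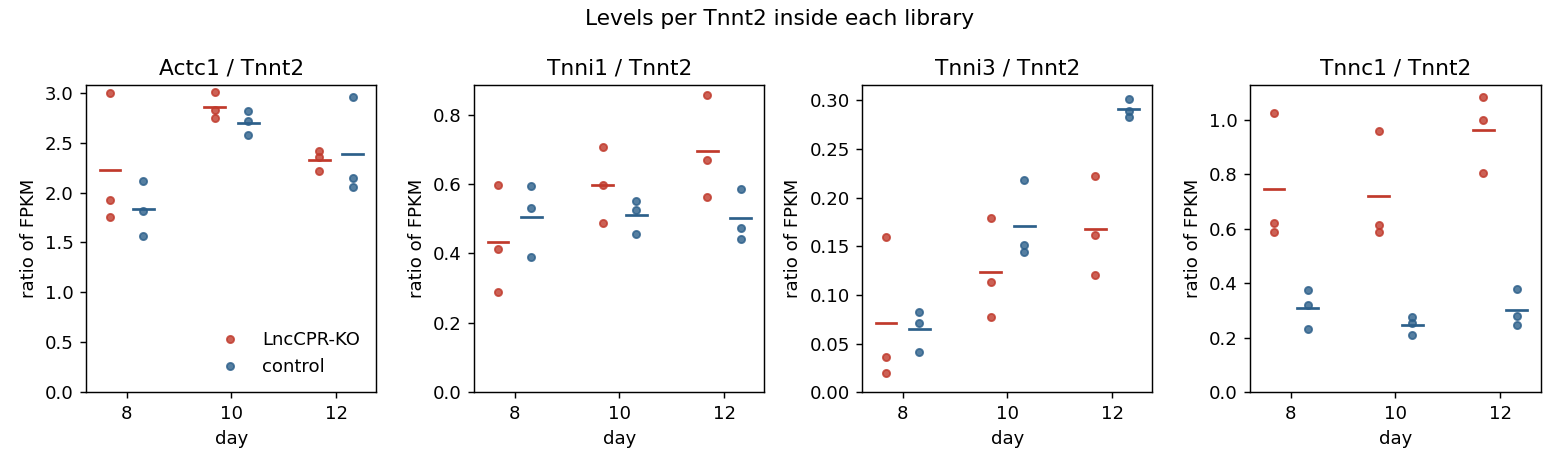
FPKM of Actc1, Tnni1, Tnni3 and Tnnc1 divided by that of Tnnt2 in the same library at days 8, 10 and 12, LncCPR-KO in red left of control in blue, with bars at group means. Actc1 and Tnni1 overlap between the lines, while Tnnc1 per Tnnt2 is at 0.586 to 1.08 in LncCPR-KO and 0.209 to 0.377 in control libraries.

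The order of levels within a library, FPKM being per length, also differed. At day 8 the LncCPR-KO means ran Tpm1 (1217 FPKM), Actc1 (52.4), Acta1 (35.3), Tnnt2 (23.9), Tnnc1 (17.5), Tnnt1 (14.7), Tnni1 (10.2) and Tnni3 (1.63). The control means ran Tpm1 (923 FPKM), Actc1 (304), Tnnt2 (168), Tnni1 (83.7), Tnnc1 (51.0), Acta1 (18.05), Tnnt1 (12.4) and Tnni3 (10.6). Acta1 stood above Tnnt2, Tnnc1 and Tnni1 in LncCPR-KO libraries and below them in control libraries. Among neighbours in this order, the libraries of Tnnt2 and Tnnc1, of Tnnc1 and Tnnt1, and of Tnnt1 and Tnni1 overlapped in LncCPR-KO, and those of Tnnt1 and Tnni3 in the control.

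On the log2(FPKM + 1) scale the size of the knockout difference depended on the day. The limma F test of the line-by-day terms over all 36 libraries passed for 8 of the 8 entries tested, against 17.1% of 13022 genes. Within days 8, 10 and 12 alone it passed for 5, namely Tnnt2, Tnni1, Tnnc1, Tnnt1 and Actc1, against 1.75% of all 12932 genes tested. The adjusted p of those 5 ran from 4.89e-04 for Tnnc1 to 0.0407 for Actc1, while those of Tnni3, Acta1 and Tpm1 were 0.944, 0.693 and 0.941. With 0.1 FPKM added before the log in place of 1, Tnnt2, Tnni1 and Tnnc1 did not pass over the 6 days (adjusted p = 0.0568, 0.0691 and 0.346). In both lines the group means of these genes were near or under 1 FPKM at days 0 and 3, and those of Tnnt2 and Tnni1 also at day 5. Adding 1 FPKM holds a difference near 0 at such levels. For them the test over 6 days therefore cannot separate a changed effect from a gene not yet expressed. Between days 8 and 12 the fold change moved towards 0 for Tnnt2, Tnni1 and Actc1, from below to above 0 for Tnnc1, and from 0.20 to -1.36 for Tnnt1.

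Tnnt2 and Tnni1 neighbour each other on chromosome 1, and Tnni3 and Tnnt1 on chromosome 7 (GENCODE M21 annotation). The median log2 fold change of the other genes on chromosome 1 was -0.19, -0.12 and -0.21 at days 8, 10 and 12. Relative to that median, Tnnt2 was at -2.57, -1.87 and -1.14 and Tnni1 at -2.76, -1.64 and -0.67, and both passed at all 3 days (adjusted p from 9.11e-05 to 0.0119 for Tnni1 and from 1.17e-05 to 0.00136 for Tnnt2). Of the chromosome 7 neighbours, Tnni3 differed at days 8, 10 and 12 while Tnnt1 passed only at day 12. Relative to its own chromosome's median, Acta1 was at 0.33 (adjusted p = 0.205) at day 10 and 0.63 (adjusted p = 0.0515) at day 12.

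Other genes of the thin filament were lower in part. Of 23 such genes (other actins, tropomyosins and troponins, and proteins that cap, nucleate or bind actin filaments), 16 were tested at day 8. Of these, 5 were lower in LncCPR-KO and 1 was higher, with a median log2 fold change of -0.13 beside 0.09 for all genes. The lower ones were Nebl, the cardiac nebulin-like protein nebulette (-2.03), Tmod1, which caps the filament's pointed end (-1.75), Xirp1 (-1.61), the formin Fhod3 (-1.42) and Cap2 (-0.90). The higher one was Actg1, cytoplasmic gamma actin (0.86). At day 10, 7 were lower and 2 higher of 16, at day 12, 5 lower and none higher of 17, at day 5, 2 lower and 2 higher of 11, and at day 0, 3 lower and 2 higher of 9. None of 10 passed at day 3. Acta2 and Actg2 of this list are also smooth muscle markers below, and Tnni2 and Tnnc2 are also skeletal muscle markers.

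The thick filament and Z-disc list of 13 genes, among them myosin heavy and light chains and alpha-actinin, was lower in LncCPR-KO for nearly every gene tested. It shares 5 genes with the cardiomyocyte markers below. At day 8, 11 of 12 tested were lower in LncCPR-KO and none was higher (median log2 fold change -2.42), with Myl2 at -3.48, Myh6 at -3.26, Myl3 at -2.50 and Actn2 at -2.45. At days 10 and 12, 11 of 12 were lower again (medians -1.79 and -1.26). The remaining gene was the titin gene Ttn. It did not pass at days 8 and 12 and passed as higher at day 10, where it was listed at 0 in the 3 control libraries against a mean of 19.0 FPKM in LncCPR-KO, and a listed 0 can be a failed estimate. At day 5, 3 of 3 tested were lower, at day 0, 1 of 4, and at day 3, none of 5.

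Markers of the muscle types that embryoid bodies can hold moved with these results as follows. The summed FPKM of 8 cardiomyocyte markers was 120 to 180 in LncCPR-KO and 734 to 925 in control libraries at day 8, with 6 of 7 tested lower and none at 0. It was 175 to 268 in LncCPR-KO and 737 to 791 in control libraries at day 10, and 226 to 263 in LncCPR-KO and 537 to 663 in control libraries at day 12, with 7 of 7 and 7 of 8 lower. At day 5 it was 2.21 to 4.35 FPKM in LncCPR-KO and 9.37 to 11.9 FPKM in control libraries, with 2 of 2 tested lower. Smooth muscle markers, 7 genes, summed to 81.8 to 106 FPKM in LncCPR-KO and 43.3 to 46.3 FPKM in control libraries at day 5. Of 5 tested there 3 were higher, namely Tagln (log2 fold change 1.45), Cnn1 (0.91) and Acta2 (0.87), at the day when Acta1, Actc1, Tpm1 and Tnni3 were higher. At day 8 the smooth muscle sums overlapped, at 466 to 623 FPKM in LncCPR-KO and 479 to 609 FPKM in control. Acta2 (means of 313 FPKM in LncCPR-KO and 393 FPKM in control) and Tagln (211 and 119 FPKM) made up most of them. Myh11 averaged 0.117 FPKM in LncCPR-KO and 0.269 FPKM in control. Tagln was then higher (0.82) and Des lower (-0.76). At days 10 and 12 the sums overlapped again, and 2 of 6 and 1 of 6 were lower, Actg2 on both days.

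Skeletal muscle markers, 12 genes, summed to 2.56 to 4.47 FPKM in LncCPR-KO and 2.02 to 3.25 FPKM in control libraries at day 8, with 4 to 6 of them at 0 in LncCPR-KO and 3 to 6 in control, and none of 2 tested passed. The sums were higher in LncCPR-KO without overlap at day 5 (3.35 to 4.29 FPKM, control 2.39 to 3.04) and day 12 (3.81 to 4.435 FPKM, control 2.11 to 3.29). They were so too at day 0 (12.7 to 14.0 FPKM, control 10.1 to 10.8) and day 3 (8.54 to 12.2 FPKM, control 6.92 to 8.21), and overlapped at day 10. Of single markers only Actn3 at day 0 passed, higher in LncCPR-KO (log2 fold change 0.54). Actn3 made up most of the sums at days 0, 3 and 5. It averaged 11.8 FPKM in LncCPR-KO and 7.87 FPKM in control at day 0. Tnnc2 was on the other side there, at means of 0.249 FPKM in LncCPR-KO and 0.801 FPKM in control. The myogenic regulators Myod1 and Myog did not exceed 0.317 and 0.319 FPKM in any of the 36 libraries. The part of these cell types in the differences of the thin filament genes was not tested.

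**Figure D5:**
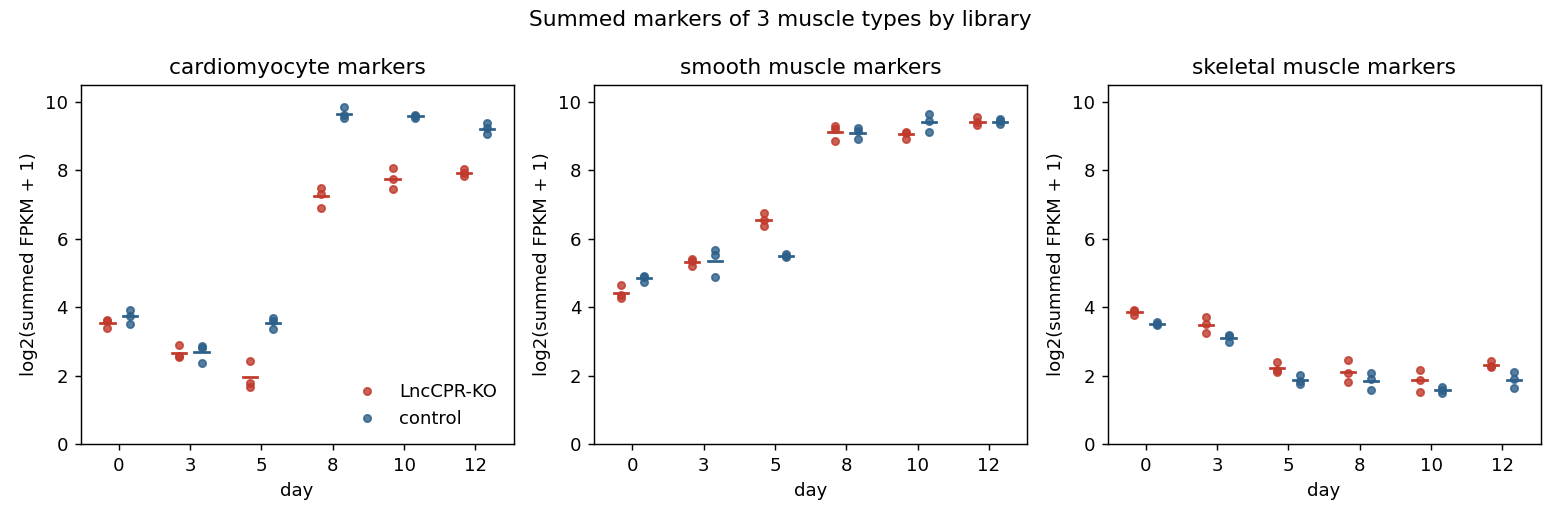
Summed FPKM of cardiomyocyte, smooth muscle and skeletal muscle markers in each library by day, as log2(sum + 1), LncCPR-KO in red left of control in blue, with bars at group means. The cardiomyocyte sum is lower in LncCPR-KO at days 5 to 12. The smooth muscle sum is higher in LncCPR-KO at day 5 and overlaps at days 8, 10 and 12. The skeletal muscle sum stays low in both lines from day 5 on, and is higher in LncCPR-KO without overlap at days 0, 3, 5 and 12. At days 0, 3 and 5 most of that sum is Actn3.

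Markers of other cell types also differed. At day 8 all 4 endothelial markers were tested and 3 were lower, with sums of 35.97 to 42.7 FPKM in LncCPR-KO and 67.7 to 72.5 FPKM in control libraries. Of 4 blood markers 2 were tested and both were lower, with sums of 1.16 to 1.67 FPKM in LncCPR-KO and 27.6 to 32.9 FPKM in control. Of the 4 markers of pluripotent cells 2 were higher, Pou5f1 (log2 fold change 1.59) and Nanog (1.04). Dppa5a (-0.43) and Zfp42 (-0.12) lay below 0 without passing. The 4 summed to 97.8 to 150.0 FPKM in LncCPR-KO and 56.4 to 60.6 FPKM in control. Pou5f1 alone averaged 82.6 FPKM in LncCPR-KO and 26.0 FPKM in control. At that day none of 4 visceral endoderm markers passed (159 to 198 FPKM in LncCPR-KO and 120 to 288 FPKM in control), and none of 2 tested neural markers (3.82 to 6.34 FPKM in LncCPR-KO and 4.98 to 6.32 FPKM in control).

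On the other days with calls among the members these markers moved too. At day 5 the pluripotent markers summed to 496 to 558 FPKM in LncCPR-KO and 241 to 297 FPKM in control libraries, with 3 of 4 higher. Kdr, an early vascular and cardiac progenitor receptor, was 1 of 2 endothelial markers tested and was lower (log2 fold change -3.39), and 1 of 4 visceral endoderm markers was higher. At day 10 all 4 pluripotent markers were higher, with sums of 100.2 to 125 FPKM in LncCPR-KO and 31.0 to 55.9 FPKM in control libraries. All 4 endothelial markers were lower there (28.0 to 32.2 FPKM in LncCPR-KO and 38.5 to 58.7 FPKM in control), as were all 4 of visceral endoderm (228 to 279 FPKM in LncCPR-KO and 491 to 833 FPKM in control) and 2 of 3 of blood. At day 12 lower markers were 2 of 4 endothelial, 2 of 3 of blood and 1 of 4 of visceral endoderm, and no pluripotent or neural marker passed. At day 0, where Tpm1 was lower, 2 of 2 neural markers were lower and 1 of 4 pluripotent markers was higher. Of 2 endothelial markers tested Pecam1 was lower, at means of 24.3 FPKM in LncCPR-KO and 28.9 FPKM in control. Cdh5, another of the endothelial list, averaged 0.0889 and 0.0819 FPKM in these stem cells. Of the muscle markers at day 0, 1 of 3 cardiomyocyte (Myh6, log2 fold change -0.57) and 1 of 4 smooth muscle (Des, -0.63) were lower, and 1 of 2 skeletal muscle (Actn3, 0.54) was higher. Their part in the members' differences was not tested.

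The genes whose log2 levels followed each member most closely over the 36 libraries, among 11202 genes compared, fell into different company. They are a description, since all share the rise with day and the same libraries. For Tnnt2 they were Nebl (r = 0.995), Myh7 (0.992) and Edil3 (0.991), and for Tnni1 Trim55 (0.989), Nebl (0.989) and Myom1 (0.988). For Actc1 they were the sodium-calcium exchanger gene Slc8a1 (0.980), Myl3 (0.979) and Mecom (0.978). Tnnc1 instead ran with Tgfb2 (0.980), Dok4 (0.978) and Cdh6 (0.977). Tpm1 ran with the calponin-related Tagln (0.986), Cnn2 (0.983) and Fam107b (0.976), and Acta1 with Efs (0.948), Tagln (0.945) and Hip1 (0.942). The best matches of Tnni3, among them Nepn, reached 0.877, and those of Tnnt1, among them Trim2, 0.690.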

How the data were processed

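RNA of whole cultures was sequenced in 36 libraries made with ScriptSeq Complete Gold, a total RNA kit, per the labels' protocols. The submitters' processing notes name TopHat, Cufflinks and the mouse build mm9. The deposited values are FPKM made by the authors, 1 table per day; strand use and scaling across tables are not given in the sources used here. FPKM carries no depth, so no counting interval is given. Here log2(FPKM + 1) was tested within each day with limma 3.58.1 in R 4.3.3 (lmFit, eBayes with trend, two-sided), where the day's mean was at least 1 FPKM, with Benjamini-Hochberg adjustment over all genes tested and a threshold of 0.05. An F test of line-by-day terms used all 36 libraries, and isoform ratios were tested by exact permutation within days (8000 arrangements). The fits were tested on simulated data. The members, all described, and the lists (thin filament, thick filament and Z-disc, markers of 8 cell types) were chosen with earlier results of these data known. From the first 2 lists up to 4 genes past the threshold at day 8 with the largest fold change were named, and for each member the 3 most correlated genes among those reaching 5 FPKM; other genes were named after their values were seen. Of 4 neural markers 3 matched an entry. Deviations of same-numbered libraries from their group means correlated above 0.1 in 5 of 18 pairs, but on no day in every pair. These libraries were not paired. Alternatives covered the pseudocount, the filter, rescaling, chromosome-centring, a replicate block and single libraries left out.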

Additional observations from a re-analysis of the deposited data

Results flagged for a closer look

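The knockout effect differed between days for each of the 8 tested entries, where 17.1% of all 13022 genes tested passed. The test was the limma F test of the line-by-day terms over 36 libraries, with adjustment over all genes tested. For Actc1 the adjusted p was 5.29e-09, with fold changes past the threshold in opposite directions at days 5 and 8. For Tnnt2 it was 1.34e-08 and for Tnni1 2.36e-07, both lower in LncCPR-KO from day 8 on. Tnni3 gave 4.28e-06, higher in LncCPR-KO at day 5 and lower from day 8. Acta1 gave 2.74e-04 and was higher at days 5, 8, 10 and 12, with no call at day 3. Tpm1 gave 4.82e-04, lower at day 0 and higher at day 5. Tnnt1 gave 0.00256 and was lower at day 12. Tnnc1 gave 0.00388 and was lower at days 8 and 10. Without the replicates numbered 2 in every group Tpm1 and Tnnt1 did not pass (adjusted p = 0.135 and 0.149), and without those numbered 1 Tnnc1 did not (0.104). In the same F test with 0.1 FPKM added in place of 1, Tnnt2, Tnni1 and Tnnc1 did not pass (adjusted p = 0.0568, 0.0691 and 0.346). Their group means lay near or under 1 FPKM in both lines at days 0 and 3, where adding 1 FPKM holds a difference near 0. In the F test within days 8, 10 and 12 alone Tnni3, Acta1 and Tpm1 did not pass (adjusted p = 0.944, 0.693 and 0.941). Of all 12932 genes tested there 1.75% passed.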

How the results depend on the processing

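No called direction of a thin filament gene reversed under any setting. Of 233 comparisons of a gene with single libraries left out, 206 kept their side of the threshold, 24 lost it and 3 gained it; of 233 under the other settings, 213 kept it, 17 lost it and 3 gained it. The count of entries past the threshold at day 3 was 2 after rescaling, where 541 of all 11945 genes passed. It was 0 to 2 with single libraries left out, where 186 to 332 genes passed. At day 5 it was 1 without the filter (424 of all 27788 genes), and 2 with chromosome-centring (853 of 12447). With single libraries left out it was 2 to 4, where 833 to 996 genes passed. The count of entries whose effect differed between days was 5 with a pseudocount of 0.1 (1962 of all 13022 genes). It was 5 over days 8, 10 and 12 only (226 of 12932). The troponin I ratio was 0.66 with a pseudocount of 0.1 and reversed to -0.16 with 5. Summing the 2 Tnnc1 entries, chosen after seeing the data, left the count at each day as it was. The cause of these shifts was not tested. With the replicate block, 4 entries passed at day 5, where 1300 of all 12447 genes passed. Tnnc1 was gained there (adjusted p = 0.0291) and Tpm1 lost (0.0679), and Acta1 was lost at day 12 (0.0576). With that block the actin and troponin T ratios gave exact p = 0.00391 and 0.0234. Same-numbered libraries correlated at -0.12 to 0.27 over 18 pairs.

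Over all genes at days 0, 3, 5, 8, 10 and 12, the main counts were 1770, 210, 1293, 417, 2609 and 878, and without the filter 774, 2, 424, 136, 775 and 218. Rescaling gave 541 at day 3 and 738 at day 8, and the replicate block 824 at day 0, 342 at day 3 and 464 at day 12. Chromosome-centring gave 853 at day 5 and 1507 at day 10. With single libraries left out the counts were lowest at 797, 186, 833, 190, 1540 and 317, and highest at 332 for day 3 and 665 for day 8. FPKM gives no depth, so a gene listed near 0 cannot be given a limit of detection.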
